A study of Homo sapiens with 12 samples.

Results

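The transmitter phenotype of SH-SY5Y cells was read from 10 genes among the 55765 gene symbols of 12 RNA-seq count files. The genes were chosen by name, with earlier results of these data known. TH, DDC and DBH make catecholamines, SLC6A2, SLC18A1, SLC18A2 and SLC18A3 carry transmitter across membranes, CHAT makes acetylcholine, and ACHE and MAOA break transmitter down. SH-SY5Y is a human neuroblastoma line derived from SK-N-SH, and all libraries come from this 1 line. In the co-treatment experiment, 3 libraries were made from cells that had H2O2 in the medium through 7 days of differentiation with all-trans retinoic acid (ATRA, 10 μM), and 3 control libraries from cells with ATRA alone. In the pre-treatment experiment, 3 libraries came from cells that had H2O2 first, over 72 h, and then ATRA over 7 days, and 3 control libraries from cells that had ATRA with no earlier H2O2. The methods give the H2O2 dose as 10 μM, picked from a series of micromolar doses as the least harmful to the cells. The description that accompanies the data gives 10 mM. All 4 groups received ATRA, so no library shows the undifferentiated state. The labels do not say whether replicates were separate cultures, so the p-values measure the spread between these libraries, which may be technical.

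Catecholamines are made in steps. Tyrosine hydroxylase (TH) turns tyrosine into L-DOPA, DOPA decarboxylase (DDC) turns this into dopamine, and dopamine beta-hydroxylase (DBH) makes noradrenaline inside vesicles. The vesicular monoamine transporters VMAT1 (SLC18A1) and VMAT2 (SLC18A2) fill those vesicles, the noradrenaline transporter NET (SLC6A2) returns released amine to the cell, and monoamine oxidase A (MAOA), on the outer mitochondrial membrane, oxidizes it and releases H2O2 in doing so. In cholinergic cells, choline acetyltransferase (CHAT) makes acetylcholine, the transporter VAChT (SLC18A3) loads it into vesicles and acetylcholinesterase (ACHE) cleaves it. SH-SY5Y cells descend from the sympathoadrenal lineage and are used as a model of catecholaminergic neurons.

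Between 27576276 and 98287391 reads were counted on genes per library. The 7 noradrenergic lineage markers looked at, such as PHOX2A and HAND2, were each above 1 CPM (counts scaled to library size with TMM factors) in at least 1 library and summed to 950.3 to 1718 CPM. The 5 neuronal markers summed to 1100 to 1601 CPM and the 5 Schwann cell markers to 5.86 to 8.14 CPM. Pre-treatment control replicate 3 stood apart from control replicates 1 and 2: it had 0.20 reads outside annotated features per read on a gene against 0.7997 and 0.830, and small structured RNA loci took 17.6% of its reads against 1.63% to 2.95%. The 3 H2O2 libraries of that experiment had 0.343 to 0.462 and 13.3% to 15.1%. The co-treatment libraries had 0.263 to 0.429 and 5.07% to 13.1%. On both measures it was control replicates 1 and 2 that lay outside the range of all other libraries. The pre-treatment tests of the members are therefore given over all 6 libraries and over the 5 without control replicate 3. Without control replicate 3, the controls and the H2O2 libraries differ in both measures. In the 5-library comparison H2O2 and these library differences therefore cannot be told apart, for the members and for all genes. The part of these differences in the results was not tested.

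The cells had many reads for the later steps of noradrenaline synthesis and very few for TH. TH, the first enzyme of the pathway, had 3, 7 and 3 reads in the co-treatment controls and 4, 16 and 4 with H2O2. In the pre-treatment experiment it had 1, 12 and 7 reads in the controls and 1, 4 and 2 after H2O2. Its highest level was 0.258 CPM, with an exact 95% interval of 0.148 to 0.419 that covers counting error only. TH did not reach the filter on low counts in the co-treatment comparison, in either pre-treatment comparison or in the test of their difference, and was not tested there. In bulk RNA such as this, fewer cells of a type and less RNA per cell cannot be told apart. On hg19 it lies on the minus strand of chromosome 11, 2185159 to 2193045, and none of its exon bases are shared with another annotated gene.

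Levels of different genes were compared per kilobase of annotated exon (RPKM). DBH was the highest of the 10, at 157 ± 89.3 RPKM (SD over the 12 libraries), and was above DDC in 12 of 12 libraries. DDC had 40.9 ± 7.34 RPKM and SLC6A2 38.4 ± 7.61. These neighbours were not separated, since DDC was the higher of the pair in 7 of 12 libraries. SLC18A1 followed at 20.6 ± 7.50 RPKM and was above SLC18A3, at 7.65 ± 2.83, in every library. Then came ACHE (5.53 ± 1.36), MAOA (2.92 ± 0.76) and SLC18A2 (2.67 ± 0.52), of which MAOA was above SLC18A2 in 9 of 12 libraries. CHAT, at 0.0813 ± 0.0292 RPKM, and TH, at 0.0329 ± 0.0265, closed the order. Thus VMAT1, the form typical of chromaffin cells, stood above VMAT2, the form typical of neurons, and the acetylcholine vesicle transporter stood far above the enzyme that makes acetylcholine. With the length of 1 canonical transcript per gene, a choice added after the data were seen, ACHE (10.4 RPKM) and MAOA (9.65) moved above SLC18A3 (7.65). DBH, DDC, SLC6A2 and SLC18A1 kept the order of their means at the top. On that scale DBH was above DDC in 11 of 12 libraries, and DDC above SLC6A2 in 10 of 12.

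**Figure D1:**
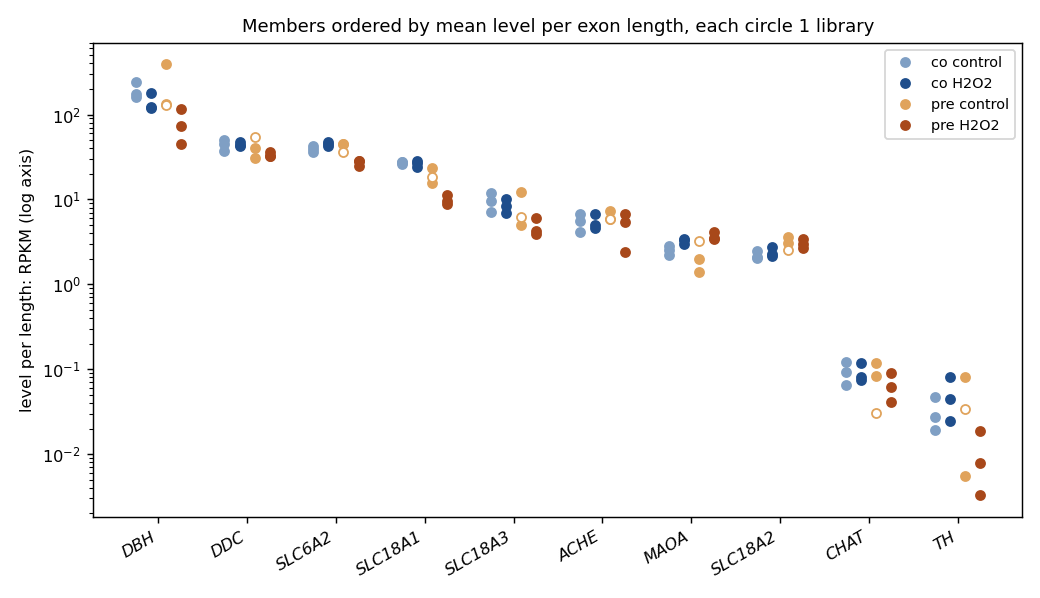
Level per kilobase of exon (RPKM, log axis) of the 10 genes, ordered by their mean, with 1 circle per library and colours for the 4 groups. The open circle is pre-treatment control replicate 3. DBH lies above every other gene, and CHAT and TH lie below 1 RPKM in all 12 libraries.

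Position and neighbours limit some of these levels. SLC18A3 is a gene of 1 exon, 2411 bases long (chromosome 10, 50818356 to 50820766, plus strand), that lies within the CHAT locus (50817141 to 50875988) on the same strand without sharing exon bases. It had 584 to 1418 reads per library where CHAT had 13 to 40. DBH (chromosome 9, 136501485 to 136524451, plus strand) shares 118 exon bases with the opposite-strand gene DBH-AS1, which had 207 to 971 reads. SLC18A2 (chromosome 10, 119000604 to 119038941, plus strand) shares 2326 of its 4125 exon bases with opposite-strand genes, mostly with PDZD8 at 1863 to 6341 reads. The kit keeps strand, but the strand setting of the counting is not given in the sources used here, so how reads in these overlaps were assigned is unknown. SLC6A2 (chromosome 16, 55689900 to 55741557, plus strand) shares 2304 exon bases with an unnamed entry on its own strand.

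Upstream sequence was looked at for the members with an entry in the RefSeq promoter table (build GRCh38.p14), which were 7 of the 10, with 12 windows. TH, SLC6A2 and SLC18A1 had no entry. The 250 bases before the annotated start are shown 5′ to 3′ on the gene's strand for DBH and MAOA, which lay at opposite ends of the pre-treatment comparison, and for the 2 members whose window held a searched motif, in capitals.
DBH, chr9:133636113-133636362: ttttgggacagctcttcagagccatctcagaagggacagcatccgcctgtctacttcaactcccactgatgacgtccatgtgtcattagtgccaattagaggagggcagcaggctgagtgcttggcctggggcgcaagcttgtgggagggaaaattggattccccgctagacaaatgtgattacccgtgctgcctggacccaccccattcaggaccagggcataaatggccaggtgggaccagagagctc
MAOA, chrX:43656049-43656298: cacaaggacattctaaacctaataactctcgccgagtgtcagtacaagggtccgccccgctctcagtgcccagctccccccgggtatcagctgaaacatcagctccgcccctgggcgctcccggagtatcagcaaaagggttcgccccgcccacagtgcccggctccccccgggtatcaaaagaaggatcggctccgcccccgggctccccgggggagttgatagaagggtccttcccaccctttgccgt
SLC18A2, chr10:117240864-117241113: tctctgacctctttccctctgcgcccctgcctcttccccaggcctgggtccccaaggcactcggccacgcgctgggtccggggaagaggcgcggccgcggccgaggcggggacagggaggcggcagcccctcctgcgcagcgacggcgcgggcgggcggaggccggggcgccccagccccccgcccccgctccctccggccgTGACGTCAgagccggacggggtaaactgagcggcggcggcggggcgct
SLC18A3, chr10:49610060-49610309: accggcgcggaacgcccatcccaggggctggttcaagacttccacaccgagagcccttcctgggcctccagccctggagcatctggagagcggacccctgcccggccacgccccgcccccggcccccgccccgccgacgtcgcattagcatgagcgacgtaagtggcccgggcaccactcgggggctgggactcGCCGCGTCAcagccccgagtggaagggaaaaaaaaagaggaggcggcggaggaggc
The letters searched on both strands were TGACGTCA (cyclic AMP response element), TGANTCA (AP-1), TGACNNNGC (antioxidant response element) and a paired homeodomain site (TAAT and ATTA, 3 bases apart). The SLC18A2 window held the cyclic AMP response element, starting 48 bases before the start, and 1.65% of 35116 RefSeq windows hold it. The SLC18A3 window held the antioxidant response element on the minus strand, starting 56 bases before the start, as do 10.9% of all windows. The other 10 windows of the members, those of DBH and MAOA among them, held none of the 4, where AP-1 letters occur in 6.57% and the paired homeodomain letters in 0.330% of all windows. The matches share no bases with one another, and they describe letters only.

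With H2O2 present during ATRA, none of the 9 members tested passed the threshold. MAOA and SLC6A2 lay above every control in all 3 H2O2 libraries, and no member lay below every control. The groups thus did not overlap for 2 of 10 members, where 14.0% of all genes tested did not overlap and 6.66% were separate with the H2O2 libraries higher. The quasi-likelihood test of edgeR called 0 of 9 members at an adjusted p below 0.05, against 0.598% of 22089 genes. At an unadjusted p below 0.05 it found 2 members, DBH and MAOA, beside 1800 of the 22089 genes. The exact test of edgeR, DESeq2 and limma-voom each called 0 members.

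MAOA had 28.6, 32.9 and 36.7 CPM in the co-treatment controls and 43.7, 38.3 and 44.9 CPM with H2O2. The lowest H2O2 library lay just above the highest control. The log2 fold change (H2O2 against control throughout) was 0.37 ± 0.13 (SE, n = 3 per group, edgeR adjusted p = 0.419). SLC6A2 had 339.6, 318 and 291 CPM in the controls and 385, 358 and 343 CPM with H2O2. These groups were also separate, by a narrow margin, with a log2 fold change of 0.20 ± 0.12 (SE, edgeR adjusted p = 0.779).

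DBH had 664, 440.4 and 475 CPM in the co-treatment controls and 487, 340.3 and 324 CPM with H2O2. The first H2O2 library lay within the control range, so the groups overlapped. The log2 fold change of DBH was -0.46 ± 0.19 (SE, edgeR adjusted p = 0.549). The estimates of DDC, SLC18A1, SLC18A2, SLC18A3, CHAT and ACHE were smaller in size and lay between -0.18 (SLC18A3) and 0.12 (SLC18A2). The 95% interval for DDC ran from -0.28 to 0.30 and for SLC18A1 from -0.29 to 0.23, while CHAT, with few reads, had one from -0.99 to 0.88. Leaving out any 1 library called no member, with log2 fold changes of 0.28 to 0.46 for MAOA and -0.67 to -0.25 for DBH.

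**Figure D2:**
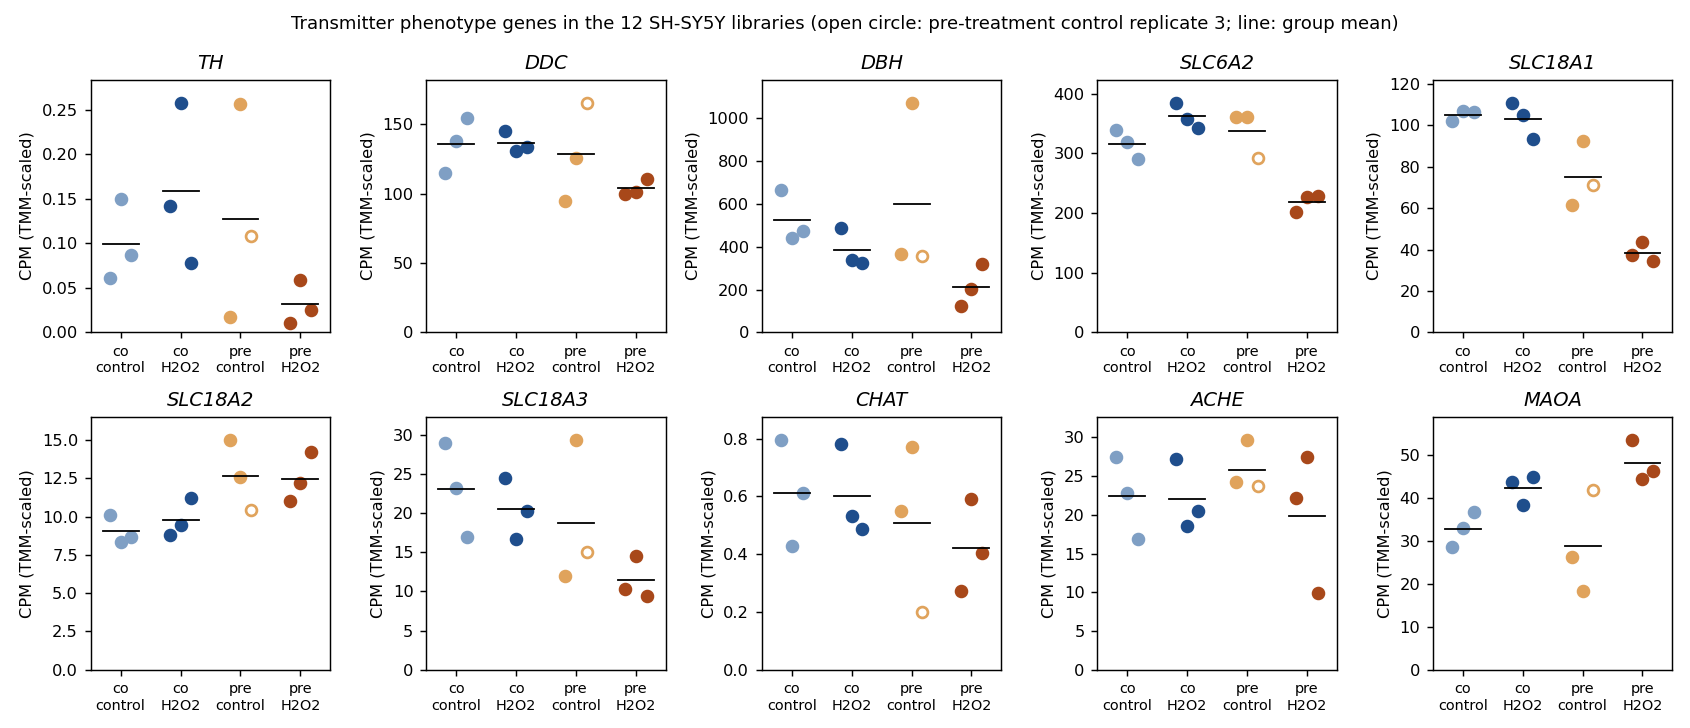
Level of each of the 10 genes (CPM, TMM-scaled, linear axes that start at 0) in every library of the 4 groups, with the group mean as a line. The open circle is pre-treatment control replicate 3. In the pre-treatment experiment SLC6A2 and SLC18A1 lie lower in all 3 H2O2 libraries than in all 3 controls, and MAOA lies higher.

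When H2O2 preceded ATRA, 3 genes of noradrenaline synthesis and transport had lower levels. DBH, SLC6A2 and SLC18A1 lay lower in all 3 H2O2 libraries than in all 3 controls, and MAOA lay higher. These 4 of 10 members did not overlap between the groups, where 16.4% of all genes tested did not, with 7.93% lower and 8.45% higher after H2O2. Over all 6 libraries the quasi-likelihood test of edgeR called 0 of 9 members, against 0.0242% of 24743 genes. It gave an unadjusted p below 0.05 for 4 members, beside 2776 of the 24743 genes. Over the same libraries DESeq2 called 3 members (DBH, SLC6A2 and SLC18A1) and 2.85% of all genes tested, the exact test of edgeR called 1 (SLC18A1) and 1.10% of all genes, and limma-voom called 0 members. Without control replicate 3, the quasi-likelihood test called 4 of 9 members, with 3 lower and 1 higher, against 26.1% of 26350 genes (12.8% lower and 13.2% higher). In that comparison 57.7% of genes did not overlap between the groups, and the same 4 members did not.

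SLC18A1 (VMAT1) had 61.8, 92.6 and 71.2 CPM in the pre-treatment controls and 37.3, 43.8 and 34.3 CPM after H2O2. Control replicate 3 was the middle of the 3 controls, and the highest H2O2 library stood well under the lowest control. The log2 fold change was -0.97 ± 0.20 (SE, edgeR adjusted p = 0.3125, 3 against 3), the smallest p of the members in this comparison. Without control replicate 3, SLC18A1 fell by 0.98 ± 0.18 on the log2 scale (SE, edgeR adjusted p = 0.00741, 3 against 2). That call rests on control replicate 2, without which the log2 fold change was -0.67 (edgeR adjusted p = 0.0634).

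SLC6A2 (NET) had 360.5, 360.2 and 292 CPM in the controls and 201, 226 and 229 CPM after H2O2. Control replicates 1 and 2 were nearly equal, replicate 3 was lower, and all H2O2 libraries were below it. The log2 fold change was -0.63 ± 0.17 (SE, edgeR adjusted p = 0.320) over 6 libraries. Over the 5 it was -0.69 ± 0.11 (SE, edgeR adjusted p = 0.00460), a fall that remained called with each further library left out (-0.76 to -0.64, adjusted p of 0.00281 to 0.0358).

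DBH had 368, 1074 and 358 CPM in the controls and 125, 201 and 318 CPM after H2O2. Control replicate 2 was far above the other controls, which lay only slightly above the highest H2O2 library. The log2 fold change was -1.48 ± 0.50 (SE, edgeR adjusted p = 0.338) over 6 libraries and -1.72 ± 0.45 (SE, edgeR adjusted p = 0.0259) over 5. The call over 5 was lost without control replicate 2 (-0.77, edgeR adjusted p = 0.274), without H2O2 replicate 1 (-1.45, adjusted p = 0.0639) and without H2O2 replicate 2 (-1.67, adjusted p = 0.0708).

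MAOA had 26.1, 18.2 and 41.7 CPM in the controls and 53.4, 44.4 and 46.1 CPM after H2O2. Control replicate 3 lay close to the H2O2 libraries and far above the other controls. The log2 fold change was 0.74 ± 0.29 (SE, edgeR adjusted p = 0.395) over 6 libraries. Without control replicate 3 MAOA rose by 1.14 ± 0.18 on the log2 scale (SE, edgeR adjusted p = 0.00454), and the rise was called with each further library left out (0.89 to 1.40, adjusted p of 0.00532 to 0.0381).

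The remaining members did not pass the test with or without control replicate 3. SLC18A3 had 12, 29.3 and 15.1 CPM in the controls and 10.3, 14.5 and 9.48 CPM after H2O2, groups that overlapped, with a log2 fold change of -0.72 (edgeR adjusted p = 0.480) over 6 libraries and -0.82 (adjusted p = 0.107) over 5. The latter ranged from -1.35 without control replicate 1 (edgeR adjusted p = 0.0171) to -0.06 without control replicate 2 (adjusted p = 0.912). DDC had 94.7 to 165 CPM in the controls and 99.9 to 110.4 CPM after H2O2. Its log2 fold change was -0.31 (95% interval -0.81 to 0.19) over 6 libraries and -0.06 (-0.37 to 0.26) over 5. SLC18A2, which codes for the other vesicular monoamine transporter, had 10.5 to 15.0 CPM in the controls and 11 to 14.2 CPM after H2O2, with a log2 fold change of -0.02 (95% interval -0.49 to 0.45) over 6 libraries and -0.12 (-0.52 to 0.28) over 5. ACHE (-0.38) and CHAT (-0.26) had estimates below 0 over the 6 libraries, with 95% intervals of -1.15 to 0.39 and -1.59 to 1.08. Over 5 libraries they were -0.41 (-1.22 to 0.39) for ACHE and -0.63 (-1.64 to 0.39) for CHAT. Of the 9 members tested, 8 had an estimate below 0, and the median log2 fold change was -0.38 beside -0.01 over all genes tested (over 5 libraries, -0.63 beside 0.01).

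**Figure D3:**
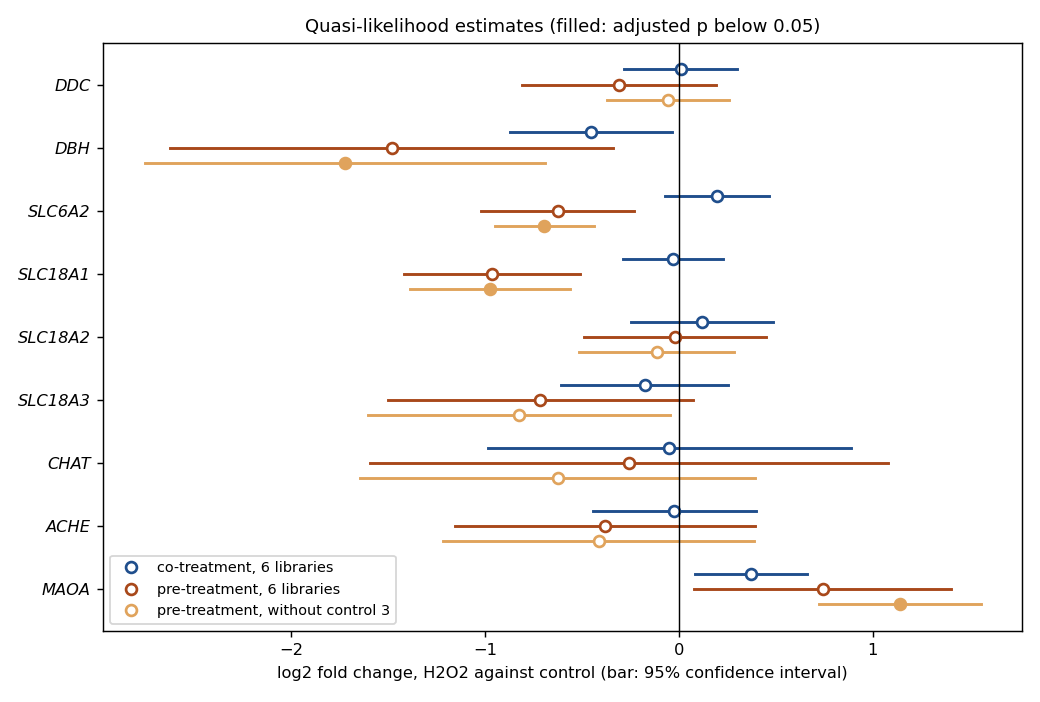
Log2 fold change of H2O2 against control with its 95% confidence interval (edgeR quasi-likelihood fit) for the 9 members tested, in the co-treatment comparison and in the pre-treatment comparison with and without control replicate 3. Filled circles have an adjusted p below 0.05: DBH, SLC6A2, SLC18A1 and MAOA, in each case only without control replicate 3.

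The response of SLC6A2 and SLC18A1 was compared directly between the experiments as the interaction over 12 libraries. The pre-treatment change minus the co-treatment change was -0.85 ± 0.20 for SLC6A2 and -0.96 ± 0.22 for SLC18A1 on the log2 scale (SE, edgeR adjusted p = 0.324 for both). The quasi-likelihood test called 0 of 9 members, against 0.0287% of 24407 genes. It gave an unadjusted p below 0.05 for 2 members, beside 2183 of the 24407 genes. DESeq2 called 2 members and 0.434% of all genes, and limma-voom called 0 members. Without pre-treatment control replicate 3, where 8.02% of 25668 genes were called, both were called, SLC6A2 at -0.94 (edgeR adjusted p = 0.00864) and SLC18A1 at -1.0 (adjusted p = 0.0176). For DBH the difference was -1.06 (95% interval -2.32 to 0.20) and for MAOA 0.35 (-0.34 to 1.04). With any 1 library left out it was -1.45 to -0.30 for DBH (edgeR adjusted p of 0.121 or more). For MAOA it was then 0.14 to 0.71 (edgeR adjusted p of 0.0616 or more). At the threshold, these data did not separate the 2 responses of either gene.

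A common change over both experiments, a comparison added after the data were seen, was largest in relation to its error for MAOA. Its log2 fold change was 0.54 ± 0.16 over the 12 libraries (SE, edgeR adjusted p = 0.225, 0.135% of all genes called) and 0.68 ± 0.15 without pre-treatment control replicate 3 (adjusted p = 0.0589, 0.729% called). For DBH it was -0.99 ± 0.32 (edgeR adjusted p = 0.258) and -1.06 ± 0.32 (adjusted p = 0.111). TH passed the filter only in the fit without that control, at -0.50 (95% interval -2.16 to 1.15, edgeR adjusted p = 0.748). No member was called.

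Ratios within a library do not depend on scaling. For each SLC18A2 read there were 10.1, 12.8 and 12.3 SLC18A1 reads in the co-treatment controls and 12.6, 11.1 and 8.33 with H2O2. In the pre-treatment experiment there were 4.12, 7.38 and 6.80 in the controls and 3.39, 3.59 and 2.42 after H2O2. The 2 pre-treatment groups did not overlap, and the pre-treatment libraries all lay under the co-treatment libraries. The labels name no batch, so the experiment and any batch cannot be told apart, and the controls of the experiments were not tested against each other. For each read of MAOB, the other monoamine oxidase, there were 1.41, 1.01 and 1.89 MAOA reads in the pre-treatment controls and 2.34, 2.32 and 2.79 after H2O2. In the co-treatment experiment the ratio was 1.20, 1.71 and 1.89 in the controls and 1.72, 2.45 and 2.28 with H2O2, groups that overlapped. Other ratios overlapped in both experiments. Per DDC read there were 3.89, 8.55 and 2.17 DBH reads in the pre-treatment controls and 1.25, 1.99 and 2.88 after H2O2. For SLC6A2 per DDC read it was 3.81, 2.87 and 1.76, and 2.01, 2.24 and 2.07. In both, only control replicate 3 lay under the highest H2O2 library. SLC18A3 per CHAT read was 21.8 to 75.2 and 23.5 to 38.0.

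**Figure D4:**
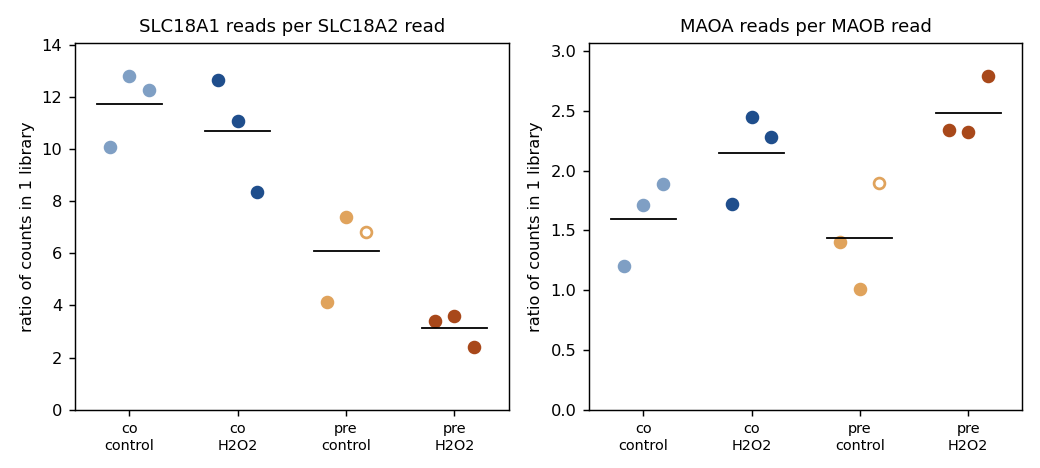
Reads of SLC18A1 per read of SLC18A2 (left) and of MAOA per read of MAOB (right) in every library of the 4 groups, with the group mean as a line and axes that start at 0. The open circle is pre-treatment control replicate 3. In the pre-treatment experiment the first ratio is lower, and the second higher, in all 3 H2O2 libraries than in all 3 controls.

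The enzymes and carriers around the members were taken from lists. By the edgeR test, 1800 of 22089 genes had an unadjusted p below 0.05 in the co-treatment comparison. Over 6 pre-treatment libraries it was 2776 of 24743 genes, and over 5 it was 10671 of 26350. The counts of list genes at that threshold are to be read beside these. Calls over 6 libraries are to be read beside 0.598% of all genes in the co-treatment and 0.0242% in the pre-treatment comparison. Of 11 genes for the supply of tetrahydrobiopterin and ascorbate, the cofactors of TH and DBH, all 11 were tested. With H2O2 during ATRA, 1 of them fell: GCH1, the rate-limiting enzyme of tetrahydrobiopterin synthesis, went from 141 to 194 CPM in the controls to 95.8 to 108 CPM, a log2 fold change of -0.74 ± 0.14 (SE, edgeR adjusted p = 0.0329). That call was lost in 5 of the 6 comparisons that left out a library (adjusted p up to 0.303) and held without control replicate 1. Over the 6 pre-treatment libraries 0 of 11 were called, with 3 at an unadjusted p below 0.05. Without control replicate 3, 2 of the 11 were called higher and 1 lower, near the 26.1% of all genes called (13.2% higher and 12.8% lower). PTS and PCBD1, also of the tetrahydrobiopterin pathway, rose by 0.63 and 0.55 on the log2 scale (edgeR adjusted p = 0.0195 and 0.0172). SLC23A2, an ascorbate transporter, fell by 0.89 (edgeR adjusted p = 0.00167). Of these 3, only SLC23A2 kept its call with each further library left out: PTS lost it without control replicate 2, H2O2 replicate 1 or H2O2 replicate 2 (adjusted p up to 0.144), and PCBD1 without those or control replicate 1 (up to 0.102). CYB561, which feeds electrons to DBH in vesicles, had 354 to 791 CPM and was not called in any comparison.

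Of 13 other genes for uptake, conversion and breakdown of monoamines, 9 were tested, and 0 were called in either 6-library comparison, with 0 and 1 at an unadjusted p below 0.05. Without pre-treatment control replicate 3, 3 of the 9 were called, all higher, where 26.1% of all genes were called and 13.2% were called higher. ALDH3A2, ALDH2 and AKR1A1, enzymes that clear aldehydes of the kind MAOA forms, rose by 0.55, 0.43 and 0.63 on the log2 scale (edgeR adjusted p = 0.0144, 0.0490 and 0.00707). AKR1A1 kept its call with each further library left out, ALDH3A2 lost it without control replicate 2, H2O2 replicate 1 or H2O2 replicate 2, and ALDH2 without those or control replicate 1. Scaled by library size alone, which lowered the median of all genes by 0.22 on the log2 scale in the 5-library comparison, PTS, PCBD1, ALDH3A2 and ALDH2 were not called (0.21 to 0.41, edgeR adjusted p of 0.0823 to 0.259). The dopamine transporter SLC6A3 had 0 or 1 read in each library. Of 8 genes that handle choline or anchor ACHE, 7 were tested in the co-treatment and 8 in the pre-treatment comparison, and 0 were called over 6 libraries, with 0 and 4 at an unadjusted p below 0.05. Over 5 pre-treatment libraries 2 of the 8 were called higher and 2 lower, again beside 26.1% of all genes. PRIMA1 and COLQ, which anchor ACHE, fell by 1.82 and 0.63 on the log2 scale (edgeR adjusted p = 0.00927 and 0.0369). PRIMA1 lost its call without control replicate 2 (adjusted p = 0.0837), and COLQ with any library but H2O2 replicate 3 left out (up to 0.179). SLC5A7, the choline transporter, and CHKB, a choline kinase, were called higher. SLC5A7 had 0.0177 to 0.0308 CPM in the pre-treatment controls and 0.281 to 0.353 CPM after H2O2 (edgeR adjusted p = 0.266 over 6 libraries and 0.00941 over 5), and at most 28 reads in any library. The call over 5 was lost without control replicate 1 (adjusted p = 0.0542) or control replicate 2 (0.0681). CHKB rose by 0.93 on the log2 scale over 5 libraries (edgeR adjusted p = 0.0466) and was named after its values were seen; this call was lost without either control or H2O2 replicate 1 or 2 (adjusted p of 0.0791 to 0.212).

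Of 24 transcription factors tied to transmitter phenotype, 17 were tested. With H2O2 during ATRA, 0 rose, and TFAP2B was among those that fell, from 158 to 262 CPM in the controls to 103 to 122 CPM (-0.90 ± 0.17, SE, edgeR adjusted p = 0.0380). The median over the 17 was -0.32, beside -0.00096 over all genes tested. The call of TFAP2B held without control replicate 1 or 3 and was lost without control replicate 2 or any H2O2 library (edgeR adjusted p of 0.0765 to 0.303). Over the 6 pre-treatment libraries 0 of 17 were called, with 4 at an unadjusted p below 0.05, and over 5 libraries 2 rose and 6 fell, in a comparison where 26.1% of all genes tested were called. GATA3 (-1.44, edgeR adjusted p = 0.0126) and REST (-0.51, adjusted p = 0.0139) were among the latter, and both lost their calls without control replicate 2 (adjusted p = 0.0924 and 0.0507), REST also without control replicate 1 or H2O2 replicate 1. GATA2, at 728 to 1008 CPM in the pre-treatment controls and 425 to 500.2 CPM after H2O2, fell by 0.92 ± 0.14 on the log2 scale over the 5 libraries (SE, edgeR adjusted p = 0.00400), and its call held with each further library left out.

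Of 23 amine and acetylcholine receptors, 14 were tested in the co-treatment comparison and 1 rose, beside 0.598% of all genes called. CHRNA3, the ganglionic nicotinic subunit, went from 108 to 127 CPM in the controls to 195 to 226 CPM with H2O2 (0.88 ± 0.12, SE, edgeR adjusted p = 0.00749). In the pre-treatment experiment it had 106 to 137 CPM in the controls and 96.2 to 143 CPM after H2O2, with a log2 fold change of 0.0046 over 6 libraries. The call in the co-treatment comparison was lost without control replicate 2 (adjusted p = 0.0692) and without H2O2 replicate 3 (adjusted p = 0.102). Over the 6 pre-treatment libraries 0 of 16 receptors were called, with 6 at an unadjusted p below 0.05, and over 5 libraries 2 of 17 rose and 4 fell, again beside 26.1% of all genes. Of those that fell, DRD4 had -2.26 (edgeR adjusted p = 0.00578), a call lost without control replicate 2 (0.0569), CHRM3 -1.74 (adjusted p = 0.0167) and CHRNB2 -0.49 (adjusted p = 0.0136). CHRM3 and CHRNB2 lost their calls without control replicate 2 or H2O2 replicate 1 (edgeR adjusted p of 0.0505 to 0.157), and CHRNB2 also without H2O2 replicate 2 (0.0532). Of 11 genes that define serotonin, histamine, GABA, glutamate or glycine cells, 10 stayed under 1 CPM in every library, and 0 of the 3 to 5 that were tested were called in any comparison, with 0 at an unadjusted p below 0.05.

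Markers of other cell states moved in part with H2O2. Of 9 mesenchymal or substrate-adherent markers, 7 were tested over 6 libraries, and their summed level was 112 to 240.3 CPM in the co-treatment controls and 217 to 237 CPM with H2O2, and 153 to 280.2 CPM in the pre-treatment controls and 220 to 305 CPM after H2O2. Of these, 1 rose with H2O2 in the co-treatment and 2 in the pre-treatment comparison, beside 0.598% and 0.0242% of all genes called. VIM, an intermediate filament gene, rose by 1.16 (edgeR adjusted p = 0.0272) and 2.42 (adjusted p = 0.0442) on the log2 scale, and COL3A1, a collagen, rose by 2.44 in the pre-treatment comparison (adjusted p = 0.0442). Each of these calls was lost in 5 of the 6 fits that left out a library, and held without control replicate 1 (co-treatment) or control replicate 3 (pre-treatment). Over the 5 pre-treatment libraries 4 of 8 tested rose, where 26.1% of all genes were called: VIM (2.66), COL3A1 (2.48), YAP1 (3.11) and CD44 (1.11), with edgeR adjusted p of 0.000718, 0.000985, 0.0251 and 0.0331. YAP1 lost its call without either control or H2O2 replicate 1 (adjusted p of 0.0768 to 0.133), and CD44 without either control or H2O2 replicate 1 or 2 (0.0546 to 0.204). Not all estimates of the list were above 0: over 6 pre-treatment libraries 4 lay above and 3 below, and over 5 libraries 6 and 2. FN1, the highest of the list at a mean of 133.5 CPM, was not called in any comparison. Its log2 fold change was 0.51 in the co-treatment comparison, and -0.33 over 6 and -0.53 over 5 pre-treatment libraries. PRRX1, the defining factor of the mesenchymal neuroblastoma state, had 0 to 6 reads per library. Of the 5 neuronal markers, 0 were called over 6 libraries in either experiment, with 0 and 1 at an unadjusted p below 0.05, and MAPT fell by 0.94 over the 5 pre-treatment libraries (edgeR adjusted p = 0.0142), a call lost without control replicate 2 or H2O2 replicate 1. Of the 5 Schwann cell markers, 0 were called in any comparison, with 0 at an unadjusted p below 0.05 over 6 libraries and 1 over 5. Of the 7 noradrenergic markers, TFAP2B was among those that fell with H2O2 in the co-treatment comparison. There all 7 had an estimate below 0, with a median log2 fold change of -0.47. By the edgeR test 4 of them had an unadjusted p below 0.05. Over the 6 pre-treatment libraries 0 were called, with 1 at an unadjusted p below 0.05, and 4 estimates lay above 0 and 3 below. Over the 5 libraries 4 of the 7 were called: PHOX2A (-0.73, edgeR adjusted p = 0.0230), GATA3 (-1.44) and TFAP2B (-1.15, adjusted p = 0.0340) fell, as did DBH, SLC6A2 and SLC18A1 in the same libraries, and ISL1 rose (0.37, adjusted p = 0.0489). The calls of PHOX2A and TFAP2B were lost without control replicate 2 or H2O2 replicate 1, and that of TFAP2B also without H2O2 replicate 2 (adjusted p of 0.0545 to 0.237). The call of ISL1 was lost with any of the 5 libraries left out (0.0661 to 0.219) and with library size alone (0.396). The part of these markers in the levels of the transmitter genes was not tested.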

How the data were processed

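RNA was freed of ribosomal RNA and made into stranded total RNA libraries. Per the submitters' processing notes, FastQC 0.11.8, cutadapt 2.10, HISAT2 2.1.0 and HTSeq 0.7.2 were used with build hg19. The deposited counts are whole reads per gene symbol, made by the authors without normalization. The annotation version and strand setting are not given in the sources used here. Entries for reads not counted on a gene, 40.0% to 59.9% of all entries, were left out of library sizes. The authors' 2 result tables (log2 fold change, log2 CPM, p-value and FDR) were not used.

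Counts were fitted in R 4.3.3 with edgeR 4.0.16 (quasi-likelihood test, TMM factors, Benjamini-Hochberg adjustment over all genes tested, calls at an adjusted p below 0.05). Genes entered when they reached the CPM of 5 counts in the smallest library (0.181 for co-treatment and the interaction, 0.120 for pre-treatment) in 3 libraries (2 in the 5-library fit). The pre-treatment fit used all 6 libraries, with the 5-library fit beside it. Intervals for counts are exact binomial intervals at 95%, scaled to CPM. The code was tested on simulated counts. Positions and exon lengths come from the GENCODE annotation lifted to hg19, and promoters from RefSeq on GRCh38.p14.

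The members and lists were chosen with earlier results of these data known. All 10 members are named. From each list, genes were named when called over 6 libraries (at most 5), when among its 3 highest by mean CPM, or when among its 3 smallest adjusted p-values over the 5 libraries. The text gives values for some of the genes this rule picks, and 1 of the others is not reported here. SLC6A3, MAOB, PRRX1, CHKB, ISL1 and CD44 were named after their values were seen. Alternatives were DESeq2 1.42.0, limma-voom (limma 3.58.1), the edgeR exact test, other scalings and filters, a replicate block, 1 fit over both experiments, fold thresholds on calls (0.6 and 1 on the log2 scale) and each library left out.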

Additional observations from a re-analysis of the deposited data

Results flagged for a closer look

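SLC6A2, the noradrenaline transporter gene, lay on opposite sides of its controls in the 2 experiments: all 3 H2O2 libraries lay above the controls in the co-treatment experiment and all 3 below them in the pre-treatment experiment. Neither 6-library comparison called it (0.20, edgeR adjusted p = 0.779, and -0.63, adjusted p = 0.320). The difference between the log2 fold changes was -0.85 ± 0.20 (SE, edgeR quasi-likelihood interaction test over 12 libraries, adjusted p = 0.324), and over the 11 libraries without pre-treatment control replicate 3 it was -0.94 (edgeR adjusted p = 0.00864).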

How the results depend on the processing

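The number of genes called moved with the method more than the estimates of the members did. In the co-treatment comparison (132 genes, 74 higher and 58 lower), the exact test called 333, DESeq2 342, library size alone 80 (57 higher and 23 lower), no filter 535 and 1 fit over both experiments 3. With 1 library left out it was 18 (without H2O2 replicate 3) to 223 (without control replicate 1), and 49 and 54 without control replicate 2 and H2O2 replicate 2. No member was called under any of these. Over the 6 pre-treatment libraries (6 genes), the exact test called 271 genes and 1 member, DESeq2 705 and 3, limma-voom 0, upper-quartile factors 0, library size alone 1, no filter 319 and 1 member, and 1 fit over both experiments 68 and 1 member. Left-out libraries gave 0 to 6872 genes and 0 to 4 members, the highest without control replicate 3 and 0 without any of the others. Over the 5 libraries (6872 genes, 3490 higher and 3382 lower), a fold threshold left 2952 genes and 2 members, upper-quartile factors gave 2186 higher and 4088 lower, and library size alone 1384 higher and 4890 lower, with median shifts of -0.12 and -0.22 on the log2 scale. Left-out libraries gave 1635 (without control replicate 2) to 8577 genes and 2 to 5 members. Without control replicate 1, H2O2 replicate 1 and H2O2 replicate 2 it was 4249, 3235 and 4021. For the difference between the experiments (7 genes), DESeq2 called 106 genes and 2 members, limma-voom 2, library size alone 4 and no filter 272 genes, and left-out libraries gave 0 to 2058 genes and 0 to 2 members, the highest without pre-treatment control replicate 3. The cause of these differences was not tested.

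Members with estimates near 0 changed sign. In the co-treatment comparison SLC18A1 (0.0187) and ACHE (0.0160) did so with library size alone, and left-out libraries gave -0.10 to 0.11 for DDC, -0.0905 to 0.0358 for SLC18A1, -0.35 to 0.0206 for SLC18A3, -0.27 to 0.20 for CHAT and -0.20 to 0.15 for ACHE. They gave -0.13 to 0.11 for SLC18A2 and -0.63 to 0.16 for CHAT over 6 pre-treatment libraries, -0.27 to 0.14 for DDC over 5, and -0.29 to 0.0126 for SLC18A2 and -0.62 to 0.22 for CHAT for the difference between the experiments. The common change of SLC18A2 was 0.03, and -0.0162 without pre-treatment control replicate 3. SLC18A3 over 5 libraries was called with no filter (-0.85, edgeR adjusted p = 0.00012) and ranged from -1.35 (adjusted p = 0.0171, without control replicate 1) to -0.06 (adjusted p = 0.912, without control replicate 2) with a library left out.

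Among the list genes, GCH1, TFAP2B and VIM were not called in the co-treatment comparison with library size alone (edgeR adjusted p of 0.0590 to 0.134), nor were they or CHRNA3 in 1 fit over both experiments (0.154 to 0.865). VIM and COL3A1 over 6 pre-treatment libraries were not called by limma-voom (0.0797) or upper-quartile factors (0.0521), nor was COL3A1 with library size alone (0.117). ALDH2 over 5 libraries lost its call under 6 further settings (0.0508 to 0.122), as did TFAP2B with DESeq2 (0.0895) and YAP1 with limma-voom (0.120). CD44 lost it with upper-quartile factors, library size alone or 1 fit over both experiments (0.0508 to 0.118). ISL1 lost it under 9 alternative settings, the exact test and DESeq2 among them (edgeR or DESeq2 adjusted p of 0.0510 to 0.396). CHKB lost it under 6, limma-voom among them (edgeR or limma-voom adjusted p of 0.0503 to 0.114).

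The labels do not say whether the replicate numbers pair the libraries. Deviations from group means correlated by -0.28 to 0.07 between libraries that share a number, which cannot decide it with so few libraries per group. With the number as a block, 181, 0, 10745 and 0 genes were called in the 4 comparisons, and the block added SLC18A3 over 5 pre-treatment libraries (-0.59, edgeR adjusted p = 0.0135) and changed no other member's call, while VIM and COL3A1 were not called over 6 libraries (0.491 and 0.344). Depth limits TH and CHAT, whose intervals are wide. Without a filter, TH had a log2 fold change of 0.68 (edgeR adjusted p = 0.870) in the co-treatment comparison and of -1.98 (0.638) over 6 and -2.09 (0.278) over 5 pre-treatment libraries.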
